A study of Mus musculus with 4 samples.

Results

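Gas5 and 8 members of the Snhg group, Snhg1, Snhg3, Snhg5, Snhg6, Snhg8, Snhg12, Snhg15 and Snhg20, are genes whose transcripts are not known to encode a working protein and whose introns carry small nucleolar RNAs (snoRNAs) or, in Snhg20, a related small Cajal body RNA. They were picked out by gene symbol, a rule that uses no measured value, although earlier results of these data were known when the set was named, and they make up 9 of the 55487 gene IDs in the table. All 9 were listed above 0 in all 4 libraries. The libraries came from cultured neural stem cells of the mouse, the precursors that give rise to neurons and glia, grown from embryonic neocortex as floating neurospheres, and the study sequenced them to ask whether Tut1 affects mRNA splicing. Gene levels alone are described here. Each of 4 groups had 1 library, so no difference below could be checked against replicates or tested, and values carry no error.

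The control culture carried loxP-flanked Tut1 (Tut1f/f) and received empty lipid nanoparticles (LNP). The Tut1 KO culture was also Tut1f/f and received LNP carrying mRNA for Cre recombinase, the enzyme that removes DNA between loxP sites. The Trp53 KO culture carried p53f/f, and the double KO culture carried both floxed genes, and both received Cre-LNP. The control therefore differed from the other groups by Cre as well as by genotype. How many animals or embryos stood behind each culture was not stated. The Tut1 enzyme extends the U6 snRNA of the splicing machinery with uridines, and Trp53 encodes the p53 transcription factor.

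A snoRNA host gene is transcribed and spliced like a messenger RNA, and the snoRNAs are trimmed out of its introns. Box C/D snoRNAs guide ribose methylation and box H/ACA snoRNAs guide pseudouridylation, mostly of ribosomal RNA. The spliced host RNAs of this kind often begin with a run of pyrimidines, as do mRNAs of ribosomal proteins, and many of them are kept low by nonsense-mediated decay, the pathway that removes RNAs with an early stop codon. Gas5, the best known, is named for its accumulation in growth-arrested cells, and its RNA can bind the glucocorticoid receptor.

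The first bases of the hosts are shown because such a run is a named feature of the family. RefSeq (GRCm38.p6) start windows were found for all hosts but Snhg6, with 2 starts for Gas5, giving 9 starts of 8 genes. Each window holds 20 bases before and 30 from the annotated start. Capitals mark a run of at least 5 pyrimidines (C or T) that begins with C and starts between 2 bases before and 10 after the start. The windows with a run lay at chr1:161035146-161035195 (plus strand, Gas5, second start), chr4:132353657-132353706 (minus, Snhg3), chr9:88522868-88522917 (minus, Snhg5), chr3:123508307-123508356 (minus, Snhg8) and chr4:132308658-132308707 (plus, Snhg12).
Gas5: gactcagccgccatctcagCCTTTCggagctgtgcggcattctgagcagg
Snhg3: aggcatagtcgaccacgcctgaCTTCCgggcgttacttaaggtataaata
Snhg5: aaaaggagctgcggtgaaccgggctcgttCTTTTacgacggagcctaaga
Snhg8: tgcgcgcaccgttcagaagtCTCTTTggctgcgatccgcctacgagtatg
Snhg12: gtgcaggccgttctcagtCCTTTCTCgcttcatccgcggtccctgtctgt

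Such a run was present at 5 of the 9 host starts (55.6%) and at 18.8% of the 32851 starts in the RefSeq table. Exactly at the first base it was present in 1 host start, that of Snhg8 (11.1%), beside 2.51% of all starts. The Snhg12 run was the longest, with 8 pyrimidines. No run by this definition was found at Snhg1, Snhg15, Snhg20 or the first Gas5 start. Annotated starts can lie some bases from the starts that cells use, so a missing run says only that these letters are not in this window.

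The second set of sequences shows examples of the small RNAs inside the hosts, chosen after their values were seen: the Gas5 and Snhg1 box C/D snoRNAs with the highest listed values, and the snoRNA of Snhg8 as a box H/ACA example. GENCODE M21 (GRCm38) places 31 snoRNA or small Cajal body RNA genes inside the 9 hosts on the host's strand, 10 of them in Gas5, 8 in Snhg1, 5 in Snhg12, 2 each in Snhg3 and Snhg5, and 1 each in Snhg6, Snhg8, Snhg15 and Snhg20. Capitals mark the C box (TGATGA, within the first 20 bases) and the D box (CTGA, within the last 12 bases) of box C/D snoRNAs, or the ACA near the end (last 6 bases) of a box H/ACA snoRNA. Gm22357 (chr1:161036057-161036139), Mir5117, which the annotation types as a snoRNA (chr1:161037356-161037439), the shorter of the overlapping Snord80 genes (chr1:161037604-161037680) and Gm25789 (chr1:161038308-161038383) lie in Gas5 on the plus strand. Gm24452 (chr19:8724531-8724602, plus) lies in Snhg1 and Snora24 (chr3:123507937-123508066, minus) in Snhg8.
Gm22357: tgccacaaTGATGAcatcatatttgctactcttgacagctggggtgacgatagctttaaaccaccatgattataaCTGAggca
Mir5117: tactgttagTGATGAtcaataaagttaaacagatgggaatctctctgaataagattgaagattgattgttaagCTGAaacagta
Snord80: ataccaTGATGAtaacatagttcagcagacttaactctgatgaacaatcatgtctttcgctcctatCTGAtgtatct
Gm25789: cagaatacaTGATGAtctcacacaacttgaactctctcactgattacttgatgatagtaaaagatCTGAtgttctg
Gm24452: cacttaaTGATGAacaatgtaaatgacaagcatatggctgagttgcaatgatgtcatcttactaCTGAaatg
Snora24: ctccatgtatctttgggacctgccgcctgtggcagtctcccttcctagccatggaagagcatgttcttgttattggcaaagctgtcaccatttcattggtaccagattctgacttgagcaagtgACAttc

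Both C and D boxes were found in 15 of the 30 snoRNAs inside the hosts and in 19.7% of the 1507 snoRNA transcripts of GENCODE. With a D box allowed within the last 18 bases, a width chosen after these sequences were seen, the counts were 17 of 30 (56.7%) and 20.3%. An ACA at the end was counted in 7 of the 30, leaving aside those already counted for both boxes. The share over all snoRNA transcripts was 45.8%, but it leaves none aside. These shares therefore cannot be set against each other. Of the 15 with both boxes, 7 lay in Gas5, 5 in Snhg1, 2 in Snhg5 and 1 in Snhg12.

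The values are transcripts per 1000000 transcripts (TPM), a level per transcript length, so levels of different genes can be set side by side. TPM carries no read counts, so sequencing depth is not known. Between 23070 and 23317 gene IDs were listed above 0 and between 8392 and 8747 had at least 10 TPM. Trp53 was at 120 TPM in the control and 100.4 in the Tut1 KO library, and at 39.7 and 41.9 in the Trp53 KO and double KO libraries. Tut1 had 29.8 TPM in the library labelled Tut1 KO against 12.2 in the control, and 13.7 in the double KO against 12.5 in the Trp53 KO, so directions drawn from the Tut1 KO and double KO labels rest on those labels. Gene-level TPM need not fall where Cre removes a single exon. The study assayed loss of the floxed exon itself in Cre-treated Tut1f/f cultures by qPCR or long-read sequencing and reported efficient deletion. Exon-level data were not analysed here, and the cause of the higher Tut1 level in the Tut1 KO library was not tested. Xist had 188 TPM with Tut1 KO and 204 with Trp53 KO and was near 0 elsewhere, whereas the Y-linked genes Ddx3y, Eif2s3y, Kdm5d and Uty exceeded 5 TPM in the control and double KO and were listed at 0 where Xist was high. In both Tut1 contrasts the libraries compared therefore differed in these sex-linked genes too, in opposite directions, and genotype and this split cannot be told apart. The same holds for double KO minus Tut1 KO and for Trp53 KO minus control. In the remaining contrast, double KO minus control, both libraries had Y-linked transcripts. Of 10 neural stem cell markers, 9 had at least 10 TPM in all 4 libraries and Sox1 between 8.05 and 11.6, and their summed level ran from 10702 to 12589 TPM. Markers of oligodendrocyte lineage summed to between 1508 and 1694 TPM, with 3 of 6 at 10 or more. Those of neurons summed to between 186 and 250, also with 3 of 6 at 10 or more. Map2 alone gave between 141 and 208 of that sum, and Dcx at most 3.13. Astrocyte markers summed to between 82.2 and 93.5, with 1 of 4 at 10 or more. That marker was Aldh1l1, between 76.1 and 90.8, and Gfap stayed below 1 TPM. All 5 microglia, 3 endothelial and 4 mesenchymal markers were below 1 TPM. In bulk RNA, fewer cells with a transcript and less of it per cell cannot be told apart.

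Together the 9 hosts summed to 1615 TPM in the control (0.161% of all TPM), 1847 with Tut1 KO (0.185%), 1770 with Trp53 KO (0.177%) and 1668 with double KO (0.167%). Gas5 gave the largest part in every library, between 42.4% and 48.2% of that sum. Gas5 (ENSMUSG00000053332, chr1:161034422-161038539, plus strand) stood at 737 TPM in the control, 783 with Tut1 KO, 853 with Trp53 KO and 734 with double KO. It ranked between 168 and 197 among all gene IDs. Its highest library was 1.16-fold above its lowest on the log2(TPM + 1) scale.

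Snhg8 (ENSMUSG00000104960, chr3:123507552-123508404, minus), the host of Snora24, was next at 274, 352, 300.2 and 321 TPM, in the same order of libraries, which is kept for all values that follow. Snhg6 (ENSMUSG00000098234, chr1:9941959-9944118, minus), the host of Snord87, had 190, 243, 231 and 200 TPM. Snhg1 (ENSMUSG00000108414, chr19:8723475-8726443, plus), which carries a series of C/D snoRNAs, had 159, 155, 151 and 152 TPM. Snhg8 was above Snhg6 and Snhg6 above Snhg1 in all 4 libraries. Snhg12 (ENSMUSG00000086290, chr4:132308623-132311024, plus), which carries several H/ACA snoRNAs, had 71.4, 83.4, 83.5 and 83.2 TPM, with the control lowest and the other libraries close together.

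Snhg3 (ENSMUSG00000085241, chr4:132348014-132353686, minus), the host of both Snora73 genes, had 57.9, 72.8, 50.5 and 74.3 TPM. Snhg5 (ENSMUSG00000097195, chr9:88521050-88522929, minus), the host of both Snord50 genes, had 51.4, 51.1, 61.7 and 55.6 TPM. The order of Snhg3 and Snhg5 turned in the Trp53 KO library, so these neighbours did not keep 1 order. Snhg15 (ENSMUSG00000085156, chr11:6525591-6528760, minus), the host of Snora9, had 38.8, 56.6, 31.2 and 26.3 TPM. Snhg20 (ENSMUSG00000086859, chr11:117076008-117078955, plus) had 35.3, 50.3, 8.27 and 22.0 TPM and was the lowest host in every library.

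**Figure D1:**
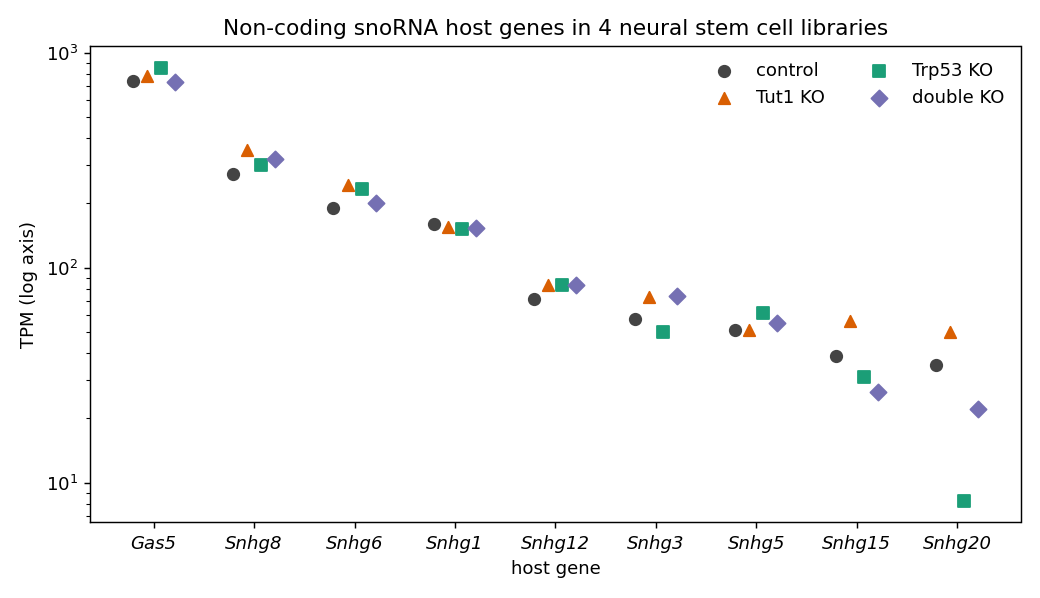
Level of each host gene (TPM, log axis) in the 4 libraries, 1 point per library, with genes ordered by level. Gas5 stands highest at 734 to 853 TPM, Snhg1 points nearly coincide at 151 to 159 TPM, and Snhg20 spreads from 8.27 to 50.3 TPM.

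The hosts fell into steady and variable ones. The range of a gene, its highest minus its lowest log2(TPM + 1) over the 4 libraries, had a median of 0.35 over the 9 hosts and of 0.39 over the 9314 genes with at least 10 TPM in some library. Snhg1 had a range of 0.08, and 1.13% of those genes had a smaller one. This place depends on the scaling, since once a fit on length and GC content was removed from each library, Snhg1 was at -0.32 in double KO minus Tut1 KO. Gas5 was then at -0.33 in that contrast, beyond its range of 0.22 without the fit. Gas5 and Snhg12 both ranged over 0.22, Snhg5 over 0.27, Snhg6 over 0.35, Snhg8 over 0.36 and Snhg3 over 0.55. Snhg15 ranged over 1.08 and Snhg20 over 2.47, at percentiles 91.9 and 98.2 of all genes. A range of at least 1, which is 2-fold on this scale, was met by these 2 hosts and by 9.28% of all genes.

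The hosts also differed in which libraries were high. In Snhg1, Snhg15 and Snhg20 the highest 2 libraries were those with Trp53 intact (13.4% of all genes). In Gas5, Snhg6 and Snhg12 they were the pair with Xist transcripts (11.5% of all genes). In Snhg3 and Snhg8 they were the Tut1 KO and double KO libraries (15.3%), and in Snhg5 the Trp53 KO and double KO libraries (14.2%). No host was highest in the control and Trp53 KO pair (17.1%) or in the control and double KO pair (28.5%), the latter with Y-linked transcripts. This sorting was added after the values were seen, and it rests on small gaps (log2 scale) between the chosen pair and the next library for Snhg12 (0.00), Snhg1 (0.03), Gas5 (0.09), Snhg8 (0.10) and Snhg5 (0.11). With genes that share exons summed, it does not hold for Snhg3, Gas5, Snhg12, Snhg5 or Snhg1. For Snhg3, whose exons are shared by Rcc1, and for Gas5 and Snhg12 the sum was highest with Trp53 KO and double KO. Snhg5 was then highest with Trp53 KO and Tut1 KO, and Snhg1 with control and Trp53 KO, almost level with Tut1 KO.

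With Trp53 intact, the Tut1 contrast (Tut1 KO minus control) was above 0 for 7 of the 9 hosts and for 39.3% of all genes. Snhg15 differed by 0.53 on the log2(TPM + 1) scale, Snhg20 by 0.50, Snhg8 by 0.36, Snhg6 by 0.35, Snhg3 by 0.33, Snhg12 by 0.22 and Gas5 by 0.09. Snhg5 and Snhg1 were at -0.01 and -0.03. The median of the hosts was 0.33 and that of all 9032 genes tested was -0.09, and all 9 hosts lay above the all-gene median. With same-strand genes that share exons summed, small RNAs inside the hosts among them, the hosts' median was 0.15. Snhg5 itself was at 0.15 in that sum. No host was higher or lower by 2-fold, beside 1.48% of all genes higher and 2.61% lower, and none by 1.5-fold, beside 4.01% higher and 8.1% lower.

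The hosts are short: their longest annotated transcripts had a median of 1221 nucleotides and 45.13% GC, beside 3114 nucleotides and 49.68% over all genes. After a fit on GC content and transcript length was removed from each library, the hosts' median in this contrast was 0.38 with all genes at 0.01, and 9 of 9 hosts again lay above it. Under this correction Gas5 was at 0.31 and Snhg1 turned from -0.03 to 0.26.

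With Trp53 deleted by the labels, the Tut1 contrast (double KO minus Trp53 KO) gave a different set of values. Snhg20 was higher by 1.31 and Snhg3 by 0.55, whereas Snhg15 was at -0.24, Gas5 at -0.22, Snhg6 at -0.21 and Snhg5 at -0.15. Snhg8 at 0.10, Snhg1 at 0.01 and Snhg12 at -0.00 made up the rest. The hosts' median was -0.00 and that of 8976 genes was 0.05, with 3 hosts above it. Snhg20 was the 1 host higher by 2-fold (1.41% of all genes) and by 1.5-fold (3.48%), and none was lower by 2-fold (1.79%) or by 1.5-fold (4.41%).

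Between the Tut1 contrasts, Snhg15 went from 0.53 to -0.24, a difference of 0.77, and Snhg6 from 0.35 to -0.21, a difference of 0.56. For Gas5 the difference was 0.30, for Snhg8 0.27, for Snhg12 0.23 and for Snhg5 0.14. Snhg20 went the other way, with 0.50 and then 1.31, a difference of -0.81, and Snhg3 had -0.22 and Snhg1 -0.05. Over the alternative scalings, pseudocounts and sums the difference ran from 0.54 to 0.91 for Snhg15 and from 0.55 to 0.74 for Snhg6. It ran from -0.89 to -0.57 for Snhg20, from 0.10 to 0.63 for Gas5 and from 0.26 to 0.41 for Snhg8. For Snhg12 it ran from 0.21 to 0.37, for Snhg5 from 0.13 to 0.30 and for Snhg3 from -0.23 to -0.08. For Snhg1 it turned direction, from -0.05 to 0.36. None of these differences could be tested with 1 library per group.

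**Figure D2:**
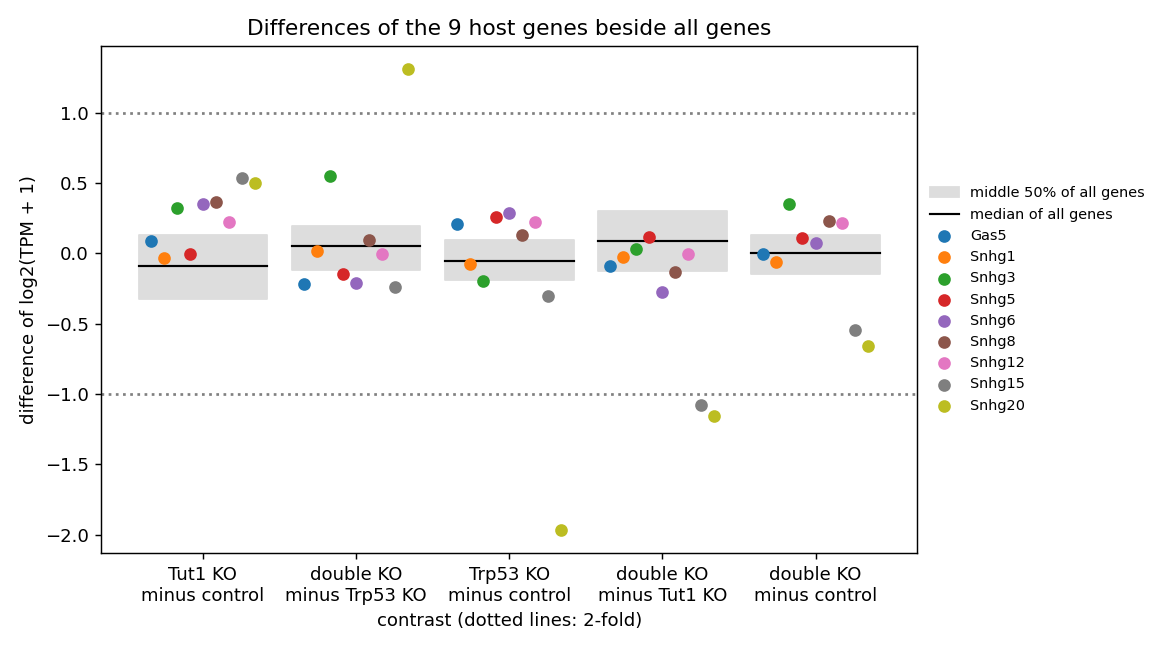
Difference of log2(TPM + 1) for each host in the 5 contrasts (points), with the middle 50% (grey) and median (line) of all genes tested and dotted lines at 2-fold. All 9 hosts lie above the all-gene median in Tut1 KO minus control, and Snhg20 lies outside the dotted lines in 3 contrasts.

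In Trp53 KO minus control, Snhg20 was lower by far more than any other host, at -1.97. Snhg15 was at -0.31, Snhg3 at -0.19 and Snhg1 at -0.08. Snhg6 was at 0.29, Snhg5 at 0.26, Snhg12 at 0.22, Gas5 at 0.21 and Snhg8 at 0.13. The hosts' median was 0.13 and that of 9055 genes was -0.05. Snhg20 alone was lower by 2-fold (1.91% of all genes) and by 1.5-fold (4.33%), and no host was higher by 2-fold (1.92%) or 1.5-fold (4.09%).

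In double KO minus Tut1 KO, which removes Trp53 from a Tut1-deleted background by the labels, Snhg20 was at -1.16 and Snhg15 at -1.08. These were the 2 hosts lower by 2-fold (1.77% of all genes) and by 1.5-fold (4.18%). Snhg15 fell short of 2-fold with a pseudocount of 5, at -0.98, and after the correction for GC content and length, at -0.935. The other 7 hosts lay between -0.28, for Snhg6, and 0.12, for Snhg5, and none was higher by 2-fold (2.13%) or 1.5-fold (6.49%). The hosts' median was -0.09 beside 0.09 over 8950 genes, and -0.32 beside 0.01 after that correction. In double KO minus control, Snhg20 was at -0.66 and Snhg15 at -0.54, Snhg3 at 0.35, Snhg8 at 0.23 and Snhg12 at 0.22. The hosts' median there was 0.07 beside -0.00 over 9022 genes, and 1 host, Snhg20, was lower by 1.5-fold (4.38%). None was higher by 1.5-fold (3.38%), higher by 2-fold (1.46%) or lower by 2-fold (1.85%).

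Snhg20 and Snhg15 were thus lower in both libraries with Trp53 deleted by label than in both libraries with it intact. For Snhg20 the gap between the lower intact library and the higher deleted library was 0.66, and the deleted libraries themselves differed by 1.31. For Snhg15 the gap was 0.31, and the deleted libraries differed by 0.24.

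The promoters of these hosts, 250 bases before to 50 after the RefSeq start, are shown because they were the most variable members. For Snhg15 (chr11:6528711-6529010, minus) capitals mark an E-box, CACGTG. For Snhg20 (chr11:117076533-117076832, plus) they mark a match to the p53 half-site consensus, which begins 195 bases before the start. GENCODE starts Snhg20 at 117076008, upstream of the RefSeq start at 117076783, so this window lies inside the GENCODE gene span.
Snhg15: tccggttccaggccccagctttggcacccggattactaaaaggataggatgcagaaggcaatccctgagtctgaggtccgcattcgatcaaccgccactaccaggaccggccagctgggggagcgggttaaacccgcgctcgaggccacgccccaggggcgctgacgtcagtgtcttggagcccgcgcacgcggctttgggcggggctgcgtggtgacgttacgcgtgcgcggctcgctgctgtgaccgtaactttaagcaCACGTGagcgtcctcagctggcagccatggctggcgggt
Snhg20: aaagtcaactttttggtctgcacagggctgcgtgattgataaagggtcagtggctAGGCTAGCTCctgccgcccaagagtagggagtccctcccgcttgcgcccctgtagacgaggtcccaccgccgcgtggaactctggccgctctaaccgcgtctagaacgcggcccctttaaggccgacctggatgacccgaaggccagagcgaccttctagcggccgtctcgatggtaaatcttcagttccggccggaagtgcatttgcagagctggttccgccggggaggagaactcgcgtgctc

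Both motifs read the same on either strand and were chosen with the values known. The E-box was present at 1 of the 9 host starts (11.1%) and 7.15% of all starts, and the half-site at 1 of 9 (11.1%) and 8.36%. A match is a description of letters and no evidence of binding.

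Snhg3 shares exons with Rcc1, which encodes the exchange factor of the Ran GTPase and lies on the same strand (chr4:132331919-132353605). Rcc1 was at 29.1, 20.04, 76.5 and 80.8 TPM, high in both libraries with Trp53 deleted by label. How reads in shared exons were divided between the genes was not stated, and each gene's own value is uncertain for that reason. Their sum was 87.0, 92.9, 127 and 155 TPM, and Snhg3 made up 66.6%, 78.4%, 39.8% and 47.9% of it. In Trp53 KO minus control the difference was -0.19 for Snhg3, 1.37 for Rcc1 and 0.54 for the sum, so the direction for Snhg3 turned when the genes were added. In double KO minus Tut1 KO it was 0.03, 1.96 and 0.73. In Tut1 KO minus control it was 0.33, -0.52 and 0.09, and in double KO minus Trp53 KO 0.55, 0.08 and 0.29. In double KO minus control it was 0.35, 1.44 and 0.83, so the value for Snhg3 more than doubled in the sum.

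**Figure D3:**
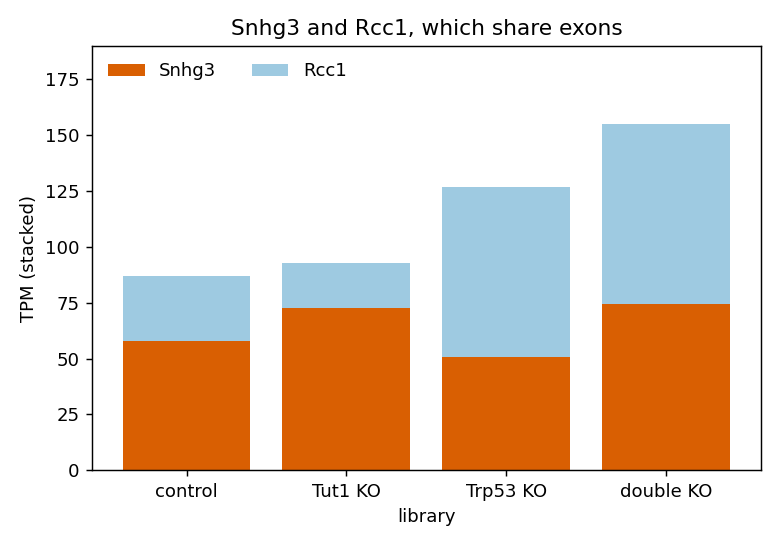
Stacked levels (TPM) of Snhg3 and Rcc1, which share exons, in the 4 libraries, 1 bar per library. The sum rises from 87.0 TPM in the control to 155 TPM in the double KO, mostly in the Rcc1 portion.

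Other hosts have neighbours of their own. Snhg1 starts 106 bases from Slc3a2, the heavy chain of several amino acid transporters, which is read from the other strand. Slc3a2 was at 207, 210, 281 and 244 TPM, while Snhg1 stayed between 151 and 159.

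Of the 31 small RNAs inside the hosts, 13 had at least 1 TPM in some library and 9 in all 4, and 18 stayed below 1 TPM in all, with 0.374 TPM at most. Libraries that select poly(A) RNA are not made to capture snoRNAs, and 29 of the 31 overlap exons of annotated host transcripts, so reads of the host may be assigned to them. They are given as listed values only.

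In Gas5, Gm22357 was listed at 55.5, 18.1, 36.1 and 62.7 TPM, low in the Tut1 KO library, where Gas5 itself was at 783. Mir5117 was listed at 52.7, 50.9, 39.2 and 59.5 TPM, Snord80 at 32.4, 26.1, 28.6 and 35.3, and Gm25789 at 25.8, 27.5, 24.9 and 26.1. Gm22357, Mir5117 and Snord80 were each highest in the double KO library, in which Gas5 was lowest, just under the control.

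In Snhg1, Gm24452 was listed at 21.6, 14.7, 17.6 and 0.19 TPM and Gm25894 at 5.24, 4.07, 5.79 and 8.58, so that these neighbours within 1 host moved apart in the double KO library. Snord87 in Snhg6 was listed at 13.4, 11.2, 11.7 and 14.3 TPM. Snora24 in Snhg8 was listed at 9.65, 7.93, 9.64 and 7.35 TPM, and Snora44 in Snhg12 at 9.91, 6.93, 6.84 and 10.4.

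For some small RNAs 1 library stood far above the others. Snord50b in Snhg5 was listed at 6.36 TPM in the Tut1 KO library and at 0.16, 0.13 and 0.11 in the control, Trp53 KO and double KO. Of the overlapping Snora16a genes in Snhg12, the shorter (ENSMUSG00000065097) was listed at 11.8 TPM in the Trp53 KO library and at 0.15, 0.11 and 0.11 in the others. The longer (ENSMUSG00000105911), which differs by 1 base in length, was at most 0.000774 TPM, so the split of reads between them is uncertain. The longer Snord80 gene in Gas5 was likewise near 0, at most 0.000538 TPM. The snoRNAs of Snhg3 were low throughout, with Snora73b listed at 0, 0.70, 1.01 and 0 TPM, and Snora73a at 1.54, 1.67, 1.10 and 1.21. The hosts Snhg5 and Snhg12 had no such gap in those libraries.

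**Figure D4:**
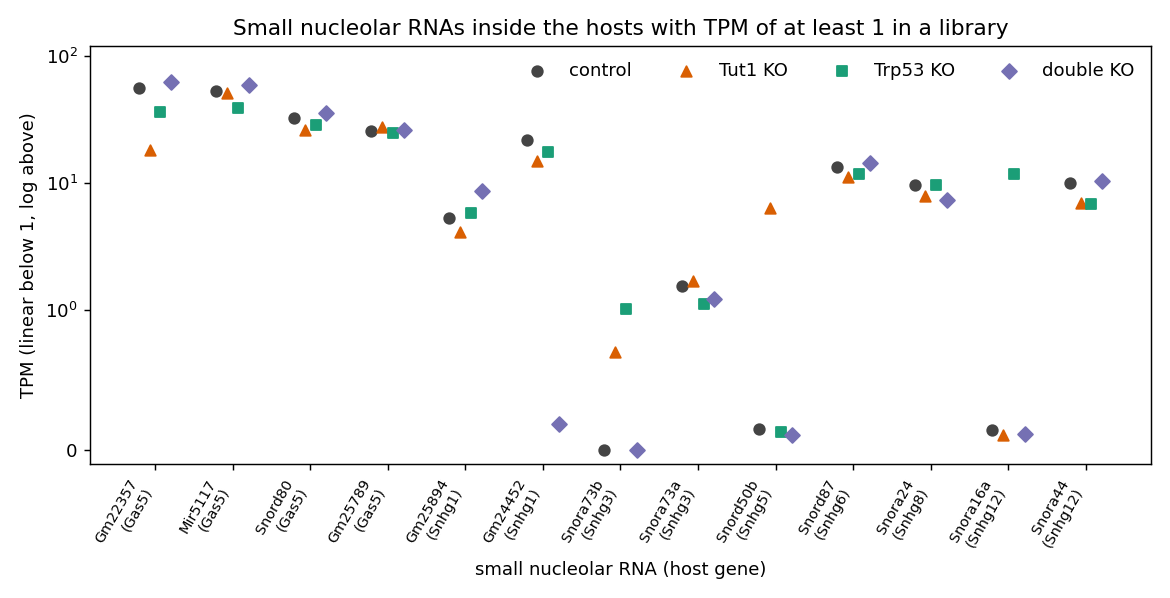
Listed TPM of the 13 small RNAs inside the hosts that reached 1 TPM in some library (linear below 1, log above), 1 point per library. The 4 Gas5 small RNAs stand between 18.1 and 62.7 TPM, and Gm24452, Snord50b and Snora16a each have 1 library far from the others.

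Genes of the same pathway were described from lists, by members with at least 1 TPM in some library. Of 14 other non-coding hosts, 12 symbols matched 13 gene IDs, of which 11 had at least 1 TPM in some library. Their median was 0.39 in Tut1 KO minus control, 0.20 in double KO minus Trp53 KO, 0.32 in Trp53 KO minus control, 0.06 in double KO minus Tut1 KO and 0.28 in double KO minus control. Over the 6 IDs with at least 10 TPM, a minimum added after the values were seen, the medians in that order were 0.31, 0.47, -0.10, 0.07 and 0.38, so the direction in Trp53 KO minus control turned. The highest were Zfas1 at 131, 172, 164 and 157 TPM and Epb41l4aos at 45.2, 75.2, 67.3 and 63.0 TPM, both lowest in the control. Snhg11 was higher by 1.68 in Trp53 KO minus control and at -1.57 in double KO minus Trp53 KO, but at no more than 3.69 TPM. One of the Snhg4 IDs was at -1.17 in the latter contrast, at no more than 2.70 TPM. Both lie below the minimum of 10 TPM behind the all-gene shares above. With a minimum of 1 TPM, the share of all genes past 2-fold in either direction was 4.42% for the contrast in which Snhg11 was higher and 3.87% for the one in which it was lower. No other member of this list passed 2-fold.

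The 27 protein-coding snoRNA hosts had medians of 0.10, 0.05, 0.03, -0.04 and 0.09 in the same order of contrasts, and Rcc1 was the 1 member past 2-fold. It was higher in Trp53 KO minus control (1.92% of all genes), double KO minus Tut1 KO (2.13%) and double KO minus control (1.46%). The 19 mRNAs with a terminal pyrimidine run that are not ribosomal proteins, such as Eef1a1 and Tpt1, had medians of 0.06, 0.04, 0.03, 0.01 and 0.07, with none past 2-fold, beside between 3.21% and 4.10% of all genes in either direction.

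The 18 proteins of snoRNA particles or of their assembly had medians of -0.06, 0.11, -0.07, 0.12 and 0.09. Among them were the methyltransferase Fbl at 310, 351, 344 and 364 TPM and the H/ACA protein Nhp2 at 287, 318, 294 and 334. The 15 factors of nonsense-mediated decay, among them the exon junction proteins Eif4a3 at 259, 307, 255 and 318 TPM and Magoh at 162, 166, 164 and 186, had medians of -0.13, 0.12, -0.10, 0.16 and 0.07. No member of either list passed 1.5-fold in any of the 5 contrasts, beside between 3.38% and 6.49% of all genes higher and between 4.18% and 8.1% lower.

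Likeness to Gas5 was measured as the root mean square distance between log2(TPM + 1) values centred on each gene's mean over the 4 libraries. The nearest genes were Timp4 (0.00802), Fbxw2 (0.0122), Cox20 (0.0126), G0s2 (0.0134) and Mrpl45 (0.0137), and 119 of 8403 genes lay within 0.05. Nearest to the median profile of the 9 hosts were Bok (0.0124), Clasrp (0.014), Siva1 (0.0142), Eif3i (0.0142) and Mcat (0.0162), and 224 of 8395 genes lay within 0.05. With 4 libraries and profiles this flat, many genes come close.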

How the data were processed

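The authors deposited TPM values per gene ID for 4 libraries. Per the labels, a stranded short-read mRNA kit was used and the submitters' processing notes name Trimmomatic, HISAT2, StringTie and mm10, without roles or versions, but long reads are described in the series text, so the platform was left unresolved. Whether counting used strand was not stated.

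A contrast included genes that reached 10 TPM in either of its libraries. The share past 2-fold in either direction, between 3.21% and 4.10% of them, was between 1.02% and 1.25% with no minimum. Differences are of log2(TPM + 1), a scale that shrinks the changes of low genes. The rule for the members used symbols only, but members, lists and thresholds were chosen with earlier results of these data known. Named genes were the members, Tut1, Trp53, sex-linked genes, list genes past 2-fold or otherwise the 2 highest, small RNAs with at least 1 TPM, and the 5 genes nearest in profile. Slc3a2, Sox1, Map2, Dcx, Aldh1l1, Gfap and the longer Snora16a and Snord80 genes were named after their values were seen. Of all gene IDs, 99.38% were found in GENCODE M21 (GRCm38, the same assembly as mm10), and start sequences came from RefSeq GRCm38.p6. The code was tested on simulated data. Python 3.11.15, numpy 2.4.6, pandas 2.3.3 and matplotlib 3.10.9 were used.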

Additional observations from a re-analysis of the deposited data

Results flagged for a closer look

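Snhg15 was higher in Tut1 KO than in control, by 0.53 on the log2(TPM + 1) scale, and lower in double KO than in Trp53 KO, at -0.24. The directions of the Tut1 contrast were opposite with Trp53 intact and with it deleted by label, and the difference between them was 0.77. After the correction for GC content and transcript length the difference was 0.54, short of 1.5-fold. It was not tested, since each group had 1 library, and the sex-linked transcripts were split between the libraries in the same way.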

How the results depend on the processing

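Of 360 member differences under the alternatives, 348 moved by less than the median absolute deviation of all genes in that contrast, which stood in for the missing spread between replicates, and 12 moved further. Of the 50 medians over the hosts, 49 moved by less. In double KO minus Tut1 KO, 1 host was lower by 2-fold with a pseudocount of 5 and 1 with the correction for GC content and transcript length, in place of 2, Snhg15 being the host lost in both, and the hosts' median was -0.32 with that correction in place of -0.09. In double KO minus control, 1 host was lower with the 1.5-fold threshold. The median ran from 0.15 to 0.42 in Tut1 KO minus control, between -0.11 and -0.00 in double KO minus Trp53 KO, from 0.10 to 0.21 in Trp53 KO minus control and from 0.03 to 0.11 in double KO minus control. The lowest of the first range came when genes that share exons were summed, which also moved Snhg3 from -0.19 to 0.53 in Trp53 KO minus control. Leaving out Snhg3, or Snhg15 and Snhg20, was chosen after seeing the data. The cause of these shifts was not tested. No paired analysis was possible because each group had 1 library, and for the same reason no replicate could be left out. Depth is unknown, so no counting error can be given.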
